A study of Homo sapiens with 12 samples.

Results

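The libraries labelled RT4 shFTO were described as a cell identity portrait, 3 of the 12 libraries of the study, chosen by the name of their count column and set against the 9 libraries of the other 3 groups with equal weight for each group. RT4 and T24 are established human bladder cancer lines, RT4 from a well-differentiated papillary tumour and T24 from a carcinoma of high grade. In RT4 shFTO and T24 shFTO the treatment label is knockdown of FTO, and in RT4 shNC and T24 shNC it is none. Poly(A)-selected RNA was sequenced in paired reads of 150 bases, and each group has 3 libraries, numbered 1 to 3. All groups carry the same genotype label, homo, which the labels do not explain. No label gives the hairpin sequences, a clone, a time after transduction, or separate cultures for the replicates, so a p-value here reflects how far libraries of a group lie apart, which may be technical.

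FTO is an enzyme that removes methyl groups from adenosines in RNA, among them N6-methyladenosine. Urothelial cells of the bladder surface are known for uroplakins and for the transcription factors GATA3, PPARG and FOXA1, and cells at the base of that epithelium for TP63 and stratifying keratins. Mesenchymal cells are known for another programme, in which secreted collagens, fibronectin and matrix glycoproteins are laid down around cells that hold onto them through integrins and carry the intermediate filament vimentin.

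Total counts were 38972182 to 42451196 in the 3 RT4 shFTO libraries and 31291047 to 102798895 over all 12. Transcripts of the mitochondrial genome took 6.96% to 7.45% of counts in RT4 shFTO, 4.71% to 5.69% in RT4 shNC, 5.31% to 5.66% in T24 shNC and 7.72% to 8.06% in T24 shFTO, and the part of this share in the results was not tested. Levels are in CPM, counts scaled to library size after TMM adjustment, as mean ± SD over 3 libraries. A gene was called where the quasi-likelihood test of edgeR, run over 23070 genes, gave a Benjamini-Hochberg (BH) adjusted p under 0.05. A count of 3 over the whole group stands for 0.0270 CPM in RT4 shFTO, 0.0123 in RT4 shNC, 0.0260 in T24 shNC and 0.0244 in T24 shFTO. Bounds on folds, intervals and this limit cover counting error only.

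FTO, the targeted gene, was at 70.2, 71.3 and 65.2 CPM in the libraries labelled RT4 shFTO. It was at 45.0, 46.9 and 46.6 CPM in RT4 shNC, at 35.4, 36.3 and 33.9 CPM in T24 shNC and at 25.9, 26.3 and 24.2 CPM in T24 shFTO. The groups did not overlap, and the 3 RT4 shFTO libraries were above all 9 others. FTO exceeded the mean of the other groups by 0.99 in log2 units (SE 0.0362, BH-adjusted p from edgeR 1.35e-13), with 0.58 against RT4 shNC, 0.97 against T24 shNC and 1.44 against T24 shFTO. A knockdown label therefore stood on the group with the highest FTO level, and the groups are named as labelled throughout. The direction of every result below is that of the libraries labelled RT4 shFTO relative to the others.

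The label RT4, a luminal bladder line, was compared with the defining genes of urothelium. Of the uroplakins, which form the plaques of the urothelial surface, UPK1B and UPK3A had 0 counts in RT4 shFTO, UPK1A and UPK2 stood at 0.0268 and 0.0718 CPM, and UPK3B at 1.42 CPM. FOXA1, a pioneer factor of luminal cells, had 3 counts in the group, at 0.0804, 0 and 0 CPM, against 1.61 ± 0.366 in RT4 shNC, 9.62 ± 1.02 in T24 shNC and 141 ± 4.27 in T24 shFTO. The epithelial cadherin gene CDH1 was at 0.0619 CPM, the adhesion gene EPCAM at 0.800 CPM, the epithelial splicing factor gene ESRP1 at 0.0266 CPM, and GRHL2, an epithelial transcription factor, at 0 counts. RT4 shNC, under the same line label, held CDH1 at 0.0453 and EPCAM at 0.0829 CPM. On these genes the RT4 shFTO libraries thus go against the luminal epithelial label. For RT4 shNC this holds for CDH1 and EPCAM, while FOXA1 was low but present there. PPARG and GATA3, also named above as urothelial factors, were not absent in RT4 shFTO. Both lay between the other groups, with levels given below beside the luminal list.

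Library profiles of RT4 shFTO were far from those of each other group. Over 16205 genes, log2(CPM + 1) values correlated with a mean Pearson r of 0.997 between RT4 shFTO libraries, of 0.781 with T24 shNC, 0.761 with RT4 shNC and 0.698 with T24 shFTO. These are correlations across genes, which are not replicates, and they are given as a description. Of 23070 tested genes, 9056 were called higher in RT4 shFTO than the mean of the other groups (39.3%) and 7724 lower (33.5%). Against each of the other 3 groups at once, 3867 genes were called higher (16.8%) and 3129 lower (13.6%). Taken singly, 8907 genes were higher than RT4 shNC (38.6%) and 9217 lower (40.0%), 8436 higher than T24 shNC (36.6%) and 9099 lower (39.4%), and 9154 higher than T24 shFTO (39.7%) and 8722 lower (37.8%). These comparisons share the RT4 shFTO libraries. With library totals as the only scaling the split against each group was 3020 higher and 4080 lower. All 3 RT4 shFTO libraries lay above all 9 others for 4141 genes (17.9%) and below them for 3107 (13.5%). The median log2 difference from the mean of the other groups was -0.04 over all tested genes, and the median absolute difference was 0.87.

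Genes that were high in RT4 shFTO only, defined by a mean of at least 10 CPM there and under 1 CPM in every other group, numbered 96 (0.416% of tested genes). Of these, 82 code for proteins and 10 are long non-coding RNAs, and 9 had 0 counts in all 9 other libraries. The same limits gave 97 genes for RT4 shNC, 126 for T24 shNC and 215 for T24 shFTO, so a set of this size was not particular to RT4 shFTO. The members just inside the limit of 10 CPM were ROBO4 (10.5 CPM) and ENSG00000276851 (10.7 CPM), which has no symbol in the table, and those just outside were EPSTI1 (9.74 CPM) and HHIP (9.60 CPM). The levels chose these genes, so no test is given for the set.

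Secreted matrix proteins led the high genes. COL1A2, a chain of type I collagen, was at 6489, 6358 and 6651 CPM in RT4 shFTO, at 0, 0.0365 and 0.0221 in RT4 shNC, at 0 in all 3 T24 shNC libraries and at 0.411, 0.519 and 0.640 in T24 shFTO. Its level in RT4 shFTO was 12423 times that of T24 shFTO, the nearest group (highest edgeR BH-adjusted p of the 3 comparisons 3.75e-20). CHI3L1, which codes for a secreted chitinase-like glycoprotein, was at 1033, 1006 and 1043 CPM in RT4 shFTO, with 0 counts in all 9 other libraries, at least 83438-fold higher than in RT4 shNC (highest edgeR BH-adjusted p 1.89e-16). Both genes separated the RT4 shFTO libraries from all others with no overlap. Both belong to the set high in RT4 shFTO only, which was chosen by level. Their p-values and non-overlap are therefore no separate evidence.

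TGFBI, a matrix protein that binds integrins and collagens, was at 3853, 3595 and 3792 CPM in RT4 shFTO. In RT4 shNC it was at 32.0, 31.5 and 33.8 CPM, in T24 shNC at 149.7, 148 and 148, and in T24 shFTO at 480.4, 498 and 484. TGFBI was thus expressed in every group. Its level in RT4 shFTO was 7.68 times that of T24 shFTO, the nearest group (log2 difference from the mean 4.82, SE 0.0251, highest edgeR BH-adjusted p 8.80e-20). TGFBI was named as a marker gene of RT4 shFTO before the test, so its p-value and non-overlap are no separate evidence. PKP1, a plakophilin of desmosomes and an epithelial rather than a matrix gene, was at 208, 198 and 207 CPM in RT4 shFTO. It had 0 counts in RT4 shNC and T24 shFTO, and stood at 0.569, 0.506 and 0.364 CPM in T24 shNC (ratio 426, highest edgeR BH-adjusted p 8.04e-17). PKP1 also belongs to the set high in RT4 shFTO only, so its p-value is no separate evidence.

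Further matrix genes followed COL1A2. COL6A3, a chain of type VI collagen that links fibrils to the cell surface, was at 1809.9, 1820.1 and 1801 CPM in RT4 shFTO and at most 0.166 CPM in any other library. SPARC, a collagen-binding glycoprotein, was at 4326 ± 96.0 CPM, against 9.74 ± 1.08 in RT4 shNC, 0.313 ± 0.321 in T24 shNC and 0.159 ± 0.0695 in T24 shFTO. VCAN, the large proteoglycan versican, was at 2392 ± 51.1 CPM and at 6.25 ± 0.180 in RT4 shNC, its nearest group. SPARC and VCAN were therefore low but present in RT4 shNC, 444 and 383 times below RT4 shFTO, and near 0 in both T24 groups.

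The other genes with the largest margins over the nearest group were of mixed kind. MMP2, a gelatinase that cleaves type IV collagen, was at 1033 ± 20.8 CPM, and ADAMTS12, a secreted metalloprotease, at 214 ± 8.81 CPM. HAPLN1, which ties proteoglycans to hyaluronan, was at 166 ± 1.04 CPM with 3 counts or fewer in each other group. THY1, a surface glycoprotein carried by many fibroblasts, was at 156 ± 4.56 CPM. All 4 stood under 1 CPM in every other library.

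GREM1, a secreted antagonist of bone morphogenetic proteins, was at 137 ± 6.66 CPM. GALNT5, which starts mucin-type sugar chains, was at 126 ± 2.97 CPM, and APCDD1L was at 208 ± 1.32 CPM. UGT1A10, a glucuronosyltransferase, was at 394 ± 11.9 CPM, but it shares exons with other UGT1A genes, so its count is uncertain.

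Outside the matrix, the 96 genes held receptors and enzymes that no list named, chosen here after their values were seen. The formyl peptide receptor genes FPR1 and FPR2, which sense bacterial peptides in phagocytes, were at 54.8 and 50.3 CPM, with at most 0.00608 CPM in another group. PADI3 and PADI1, which convert arginine to citrulline in proteins, were at 56.4 and 14.8 CPM. CMKLR1, a receptor for chemerin, was at 37.7 CPM, and SERPINB2, a plasminogen activator inhibitor, at 88.0 CPM. PLXNA4, a semaphorin co-receptor, was at 117 CPM and PDE1C, a cyclic nucleotide phosphodiesterase, at 74.8 CPM.

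The windows of 250 bases before the start of CHI3L1 (chr1:203186705-203186954, minus strand) and COL6A3 (chr2:237414165-237414414, minus strand) are shown because they had the largest margins of the set among genes with an entry in the RefSeq promoter table (GRCh38.p14). They read 5′ to 3′ on the gene's strand, and capitals mark CG dinucleotides, the sites of DNA methylation. CHI3L1 has 6 of them and COL6A3 has 3.
CHI3L1: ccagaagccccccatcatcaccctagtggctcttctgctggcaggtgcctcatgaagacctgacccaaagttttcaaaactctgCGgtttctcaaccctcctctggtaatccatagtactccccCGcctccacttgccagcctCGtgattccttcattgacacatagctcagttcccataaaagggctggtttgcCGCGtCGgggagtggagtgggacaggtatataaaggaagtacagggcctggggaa
COL6A3: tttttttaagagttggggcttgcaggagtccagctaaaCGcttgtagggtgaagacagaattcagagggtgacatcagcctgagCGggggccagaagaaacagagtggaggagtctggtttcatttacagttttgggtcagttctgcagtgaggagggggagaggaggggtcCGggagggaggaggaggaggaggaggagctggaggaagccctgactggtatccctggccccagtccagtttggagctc

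**Figure D1:**
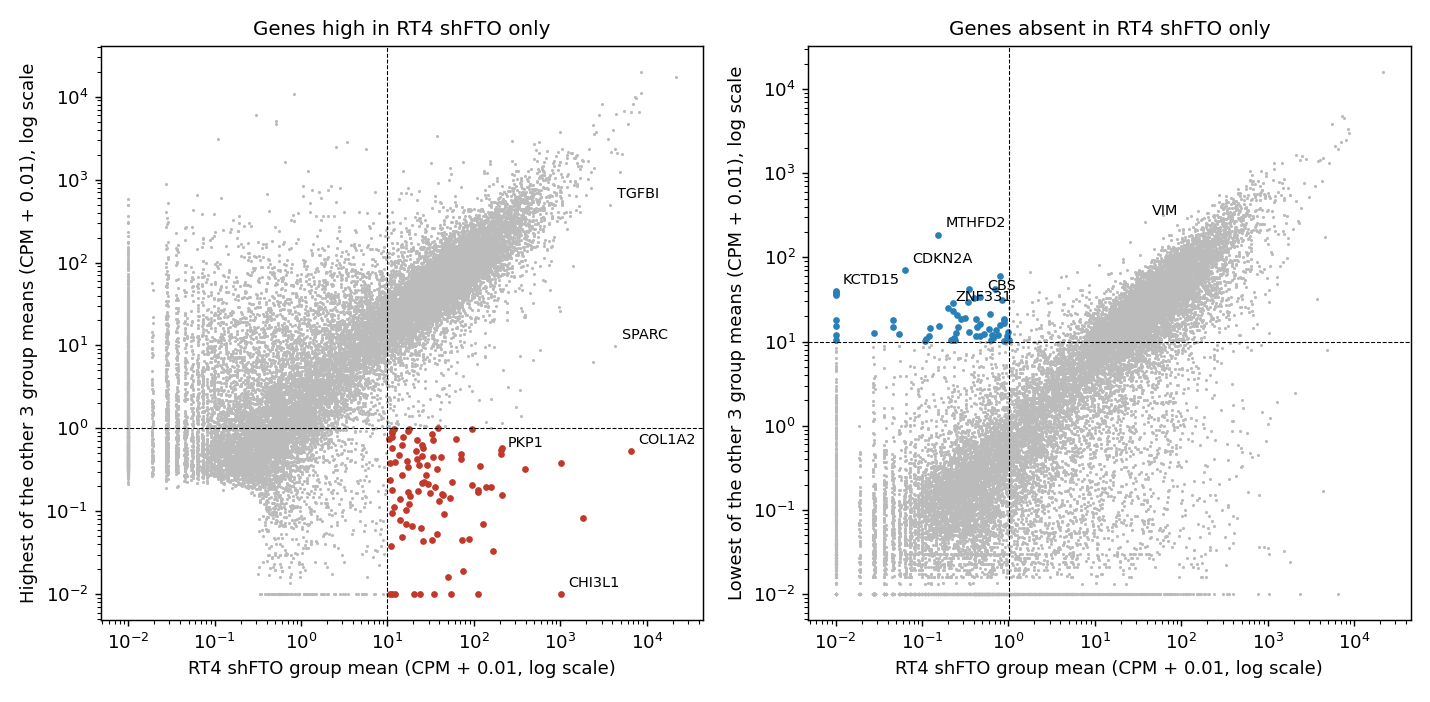
Each point is a tested gene, with its mean level in RT4 shFTO on the x axis and the highest (left) or lowest (right) mean of the other 3 groups on the y axis, in CPM + 0.01 on log scales. The 96 genes high in RT4 shFTO only (red) and the 61 absent there only (blue) lie past the dashed limits of 10 and 1 CPM, and TGFBI, SPARC and VIM lie outside those limits.

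Genes absent in RT4 shFTO only, under 1 CPM there and at 10 CPM or more in every other group, numbered 61 (0.264% of tested genes), of which 57 code for proteins and 8 had 0 counts in all 3 libraries. The same limits gave 82 genes for RT4 shNC, 25 for T24 shNC and 102 for T24 shFTO. Just inside, FBXO41 and ARHGEF25 were at 10.2 CPM in their lowest other group, and just outside, CADM4 and CACHD1 were at 9.95 and 9.89 CPM. In bulk RNA, fewer cells of a type and less RNA per cell cannot be told apart, here as for the results that follow.

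MTHFD2, a mitochondrial enzyme of folate metabolism that proliferating cells use, was the gene with the largest margin below the other groups. It was at 0.107, 0.113 and 0.209 CPM in RT4 shFTO, from 16 counts in all. In RT4 shNC it was at 193, 200.4 and 202 CPM, in T24 shNC at 179.8, 189.6 and 188, and in T24 shFTO at 244, 230.2 and 232. All 3 RT4 shFTO libraries were below all others, 1299 times below T24 shNC (highest edgeR BH-adjusted p 7.33e-21). Genes with the largest margins were picked among genes called against each group with no overlap. For all of them, the p-value and the non-overlap therefore follow from the choice. CBS, which makes cystathionine from homocysteine, was at 0.458 CPM against 56.9 in RT4 shNC, 33.6 in T24 shNC and 181 in T24 shFTO. CHAC1, a glutathione-degrading enzyme, was at 0.964 CPM against 17.7, 11.6 and 60.1 CPM in the same order. CBS and CHAC1 were chosen after their values were seen.

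KCTD15, which codes for a BTB domain protein, had 0 counts in RT4 shFTO and at least 38.8 CPM in every other library, at least 1482-fold lower than in T24 shNC (highest edgeR BH-adjusted p 1.03e-17). SPART, the spartin gene, was at 0.322, 0.509 and 0.183 CPM and DAB2IP, a Ras GTPase-activating protein, at 0.241, 0.198 and 0.209 CPM. Their lowest levels in any other library were 41.0 and 27.4 CPM. CPNE7, a calcium-dependent phospholipid-binding copine, was at 0.393 ± 0.251 CPM, with 32.7 ± 0.344 CPM in T24 shFTO, its nearest group.

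Zinc finger genes recurred among the absent genes. ZNF160 had 0 counts, ZNF331 was at 0.189 ± 0.0252 CPM and ZNF714 at 0.334 ± 0.0570 CPM, each with at least 17.2 CPM in every other library. Genes with a ZNF symbol, a group chosen after the values were seen, were 7 of the 61 absent genes and 458 of the 23070 tested. Of those 458, 130 were called lower than each other group (28.4%) and 31 higher (6.77%), against 13.6% and 16.8% of all tested genes. By the same limits ZNF symbols were 3 of the 25 genes absent in T24 shNC only, 1 of 102 in T24 shFTO and 0 of 82 in RT4 shNC. Of the 59 absent genes with a position, 11 lie on chromosome 19, which holds 6.80% of tested genes with a position, and 7 on chromosome 9, which holds 4.02%. Zinc finger paralogs can share reads, so single values in this family are uncertain.

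The promoter windows of MTHFD2 (chr2:74198365-74198614, plus strand) and CDKN2A (chr9:21995325-21995574, minus strand), the absent genes with the largest margins, are shown in the same way and from the same RefSeq table. MTHFD2 has 21 CG dinucleotides in 250 bases and CDKN2A has 24.
MTHFD2: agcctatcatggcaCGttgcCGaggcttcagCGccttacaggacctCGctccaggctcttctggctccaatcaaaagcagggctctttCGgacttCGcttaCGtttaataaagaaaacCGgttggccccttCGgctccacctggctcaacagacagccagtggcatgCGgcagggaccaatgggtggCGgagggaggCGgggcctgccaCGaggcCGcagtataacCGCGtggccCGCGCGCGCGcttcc
CDKN2A: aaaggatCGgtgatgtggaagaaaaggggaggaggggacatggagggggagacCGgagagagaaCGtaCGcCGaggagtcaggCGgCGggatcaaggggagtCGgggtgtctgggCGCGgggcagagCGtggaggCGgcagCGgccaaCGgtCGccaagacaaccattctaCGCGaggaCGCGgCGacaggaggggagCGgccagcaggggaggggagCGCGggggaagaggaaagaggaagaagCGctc

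**Figure D2:**
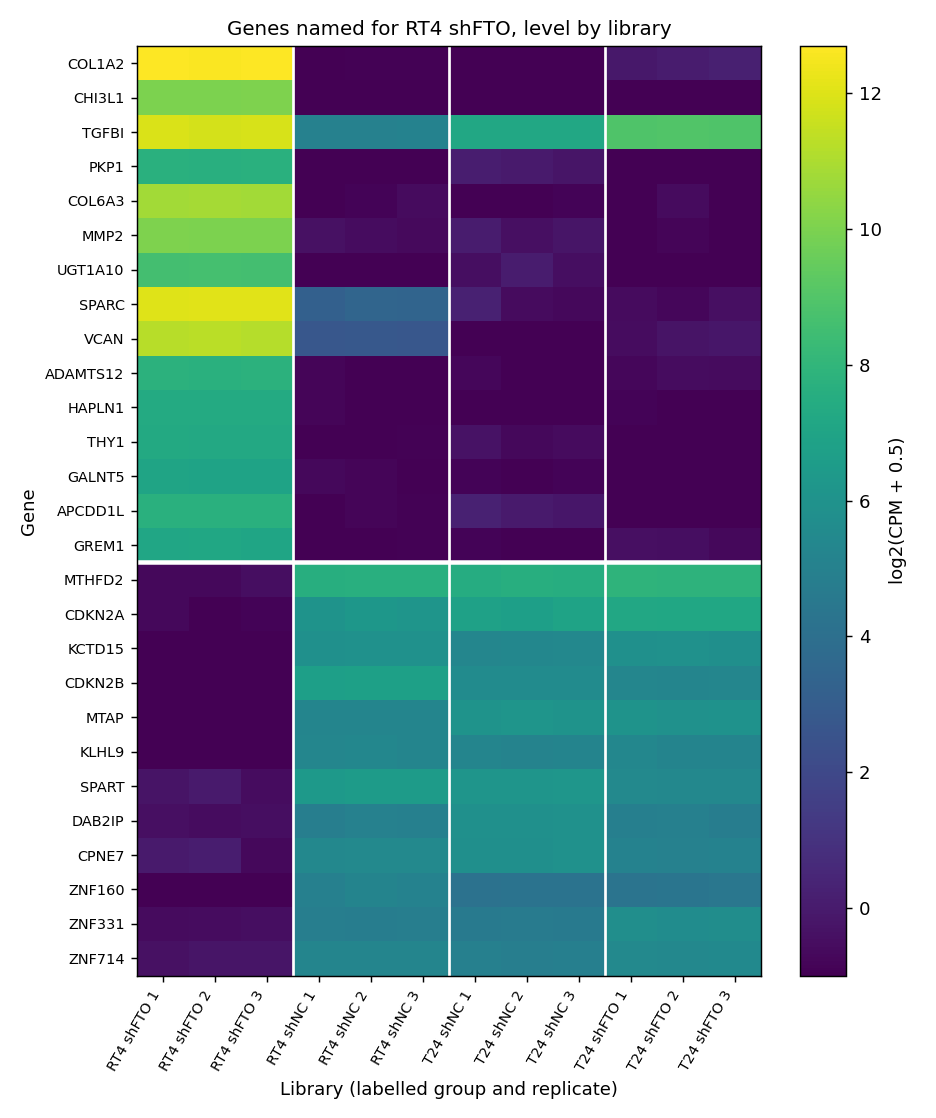
Levels of the marker genes and of the genes with the largest margins in each of the 12 libraries, as log2(CPM + 0.5) in colour, with one row per gene and white lines between the labelled groups. The 15 genes above the white horizontal line were highest in the 3 RT4 shFTO libraries and the 12 below it were lowest there.

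CDKN2A, CDKN2B and MTAP, which lie together on chromosome band 9p21, were absent together. CDKN2A, which codes for the cell cycle inhibitors p16 and ARF, was at 0.107, 0 and 0.0522 CPM in RT4 shFTO (6 counts), at 65.2, 74.5 and 71.5 CPM in RT4 shNC, at 113, 107 and 125 in T24 shNC and at 147, 144 and 144 in T24 shFTO. CDKN2B, which codes for the related inhibitor p15, and MTAP, an enzyme that recycles methylthioadenosine, had 0 counts in RT4 shFTO. CDKN2B was at 108 ± 3.58 CPM in RT4 shNC, 48.7 ± 0.527 in T24 shNC and 38.0 ± 1.03 in T24 shFTO, and MTAP at 37.4 ± 0.548, 67.6 ± 3.39 and 62.3 ± 2.18. No RT4 shFTO library overlapped any other for these genes (highest edgeR BH-adjusted p 7.23e-17 for CDKN2A), as the choice of genes by margin required.

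Along the chromosome, genes with a RefSeq position and a mean of at least 1 CPM in any group were followed, and genes below that were skipped. Of these, 10 consecutive genes from IFNB1 to LINC01239 (chromosome 9, 21077104 to 22824213, GRCh38.p14, 1.75 Mb) held 9 counts in all in the 3 RT4 shFTO libraries. Of the 10 genes, 8 were at 0 counts, CDKN2A held 6 counts and its neighbour CDKN2B-AS1 held 3. Some of them were low elsewhere too. IFNB1 was also at 0 counts in RT4 shNC and T24 shFTO, MIR31HG and IFNE at 0 in T24 shFTO, and LINC01239 at 0.423 and 0.557 CPM in T24 shNC and T24 shFTO, so the ends of the block rest on genes that other groups also lack. KLHL9, a substrate adaptor of a ubiquitin ligase 0.64 Mb to the left of CDKN2A, was at 0 counts against 38.9 ± 1.16, 35.6 ± 1.30 and 37.1 ± 2.61 CPM in RT4 shNC, T24 shNC and T24 shFTO. Beyond the block, FOCAD was at 66.2 CPM on the left, and CAAP1 and PLAA were at 14.1 and 44.9 CPM on the right. HACD4 and TUSC1, the nearest neighbours of the block that reached 1 CPM in any group, were at 0.700 and 1.26 CPM. CDKN2A and CDKN2B-AS1 overlap on opposite strands and whether reads were counted by strand was not stated, so the split of reads between them is uncertain. DNA was not measured, and loss of the genes and loss of their transcripts cannot be told apart.

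**Figure D3:**
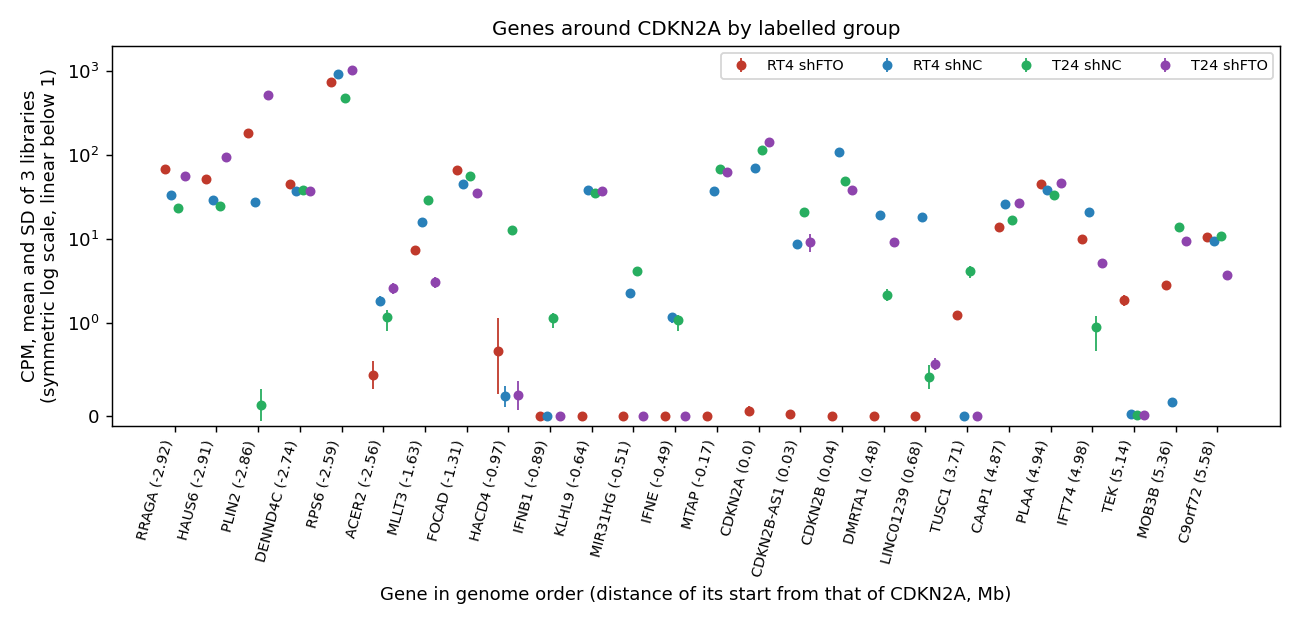
Levels of genes around CDKN2A that reached a mean of 1 CPM in any group, in genome order, as the mean and SD of 3 libraries per labelled group in CPM on a symmetric log axis that is linear below 1, with the distance of each gene's start from that of CDKN2A in Mb. The RT4 shFTO points lie at or near 0 CPM from IFNB1 to LINC01239 and above 10 CPM at FOCAD, CAAP1 and PLAA, where they are above, below and among the other groups.

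Collagens and the enzymes that process them were higher as a group. Of 28 tested members, 25 were called higher than the mean of the other groups and 2 lower, and 20 were called higher than each other group and 2 lower, with a median log2 difference of 4.17. For all tested genes the shares were 39.3% and 33.5% against the mean and 16.8% and 13.6% against each group. Their median was -0.04, and every list below is read beside these values. Up to 4 members named per list were picked by margin among those called against each group. For them the p-value follows from the choice, so it and any non-overlap are no separate evidence. COL3A1, the type III collagen chain, was at 95.7 ± 1.78 CPM and at most 0.305 CPM in any other library, and ADAMTS2, which trims procollagen, at 112 ± 1.71 CPM and at most 0.184. COL1A1, the partner chain of COL1A2 in type I collagen, was at 779, 755 and 801 CPM. In the other groups COL1A1 was at 0.445 ± 0.0584, 153 ± 3.46 and 0.862 ± 0.266 CPM (RT4 shNC, T24 shNC, T24 shFTO), so it was shared with T24 shNC at 5.08 times below RT4 shFTO (log2 difference from the mean 7.63, SE 0.0520, highest edgeR BH-adjusted p 1.15e-15).

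COL5A1, a type V chain that sits in the core of fibrils, was also shared with T24 shNC, at 1541 against 879 CPM, and stood at 0.0226 CPM in RT4 shNC and 0.0472 in T24 shFTO. COL12A1, which bridges fibrils, was at 1282 CPM and the crosslinking enzyme LOX at 288 CPM, against at most 367 and 68.1 CPM in another group. The collagen chaperone SERPINH1 was at 476 CPM and the lysyl hydroxylases PLOD1 and PLOD2 at 695 and 441 CPM, and all 3 were called higher than each other group. The 2 genes called lower were LOXL3, another crosslinking enzyme, at 0.729 CPM, and PCOLCE, an enhancer of procollagen cleavage, at 0.562 CPM.

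Matrix glycoproteins and proteoglycans were called higher than the mean for 23 of 34 tested members and lower for 7, and higher than each other group for 18 and lower for 2 (median log2 difference 2.54). POSTN, periostin, was at 73.1 ± 1.37 CPM with at most 0.0459 CPM elsewhere. FN1, fibronectin, was at 4554 CPM against 176, 989.7 and 2119 CPM in RT4 shNC, T24 shNC and T24 shFTO, and THBS1, thrombospondin, at 4868 against 335, 8.01 and 1222 CPM. EFEMP1, a fibulin family glycoprotein, was at 1006 CPM with 25.7 CPM in T24 shNC as its nearest group. FBN2, a microfibril protein, at 0.0174 CPM, and FBLN1, another fibulin, at 0.824 CPM, were the 2 members called lower than each other group. MFAP5 had 0 counts and DCN, the proteoglycan decorin of many fibroblasts, stood at 0.431 CPM.

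Basement membrane genes split. Of 24 tested members, 14 were called higher than the mean and 6 lower, and 9 were higher than each other group and 3 lower (median 1.08). LAMA4, a laminin chain of mesenchymal and vascular basement membranes, was at 216 ± 2.74 CPM against at most 5.48 CPM elsewhere. COL17A1, a hemidesmosomal collagen, was at 8.66 ± 0.619 CPM and 4.83 times above RT4 shNC. The members lower than each other group were LAMA5 (130.1 CPM), HSPG2, the proteoglycan perlecan (286 CPM), and NID2, which links laminin to collagen (0.188 ± 0.0666 CPM).

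Integrins, the receptors for this matrix, were called higher than the mean for 14 of 20 tested members and lower for 3, and higher than each other group for 8 and lower for 1, ITGA7 (median 1.51). ITGA11, a collagen-binding subunit, was at 351, 348 and 352 CPM in RT4 shFTO and at most 1.58 CPM in any other library, 253 times above T24 shNC (highest edgeR BH-adjusted p 7.09e-21). ITGA2, the other main collagen-binding subunit, was at 667 ± 5.46 CPM against 33.1 ± 1.81, 20.4 ± 1.16 and 60.3 ± 0.195 CPM. ITGB3, the beta subunit of the vitronectin receptor, was at 86.9 ± 0.919 CPM and ITGB6, an epithelial beta subunit, at 5.46 ± 0.430 CPM, both higher than each other group. ITGA4, which binds fibronectin and VCAM1, was at 0.00943 CPM, with 46.2 CPM in RT4 shNC.

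Genes of epithelial-mesenchymal transition and of the mesenchymal cytoskeleton were called higher than the mean for 19 of 27 tested members and lower for 3. Against each other group 11 were higher and 2 lower, with a median log2 difference of 2.00. CDH11, a mesenchymal cadherin, was at 27.8 ± 1.35 CPM and FAP, fibroblast activation protein, at 38.9 ± 2.82 CPM, each under 1.5 CPM in every other library. SNAI1, a repressor of CDH1, was at 24.7 CPM, CDH2, the neural cadherin, at 278 CPM and CAV1, caveolin, at 826 CPM, and all 3 were called higher than each other group. SNAI2 was shared with T24 shNC, at 28.9 and 25.7 CPM.

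The 2 members that went the other way include the gene that names the mesenchymal filament. VIM, vimentin, was at 37.7, 38.0 and 37.0 CPM in RT4 shFTO, at 3163, 3326 and 3449.9 CPM in RT4 shNC, at 259, 259.8 and 260.1 in T24 shNC and at 515, 484 and 491 in T24 shFTO. The RT4 shFTO libraries were the lowest of the 12 with no overlap, and VIM was lower than the mean by -4.33 in log2 units (SE 0.0372, highest BH-adjusted p from edgeR 5.86e-19). FOXC1, a transcription factor of mesenchymal progenitors, was at 0.0551 ± 0.0477 CPM against 3.93 ± 0.433 in T24 shFTO. TWIST1 and PRRX1, which drive mesenchymal states in other cells, were at 0.0174 and 0.0268 CPM.

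Epithelial junction and splicing genes were called lower than the mean more often than higher. Of 29 tested members, 6 were called higher than the mean and 16 lower, and 1 was higher than each other group and 5 lower, with a median log2 difference of -1.52. Their summed level was 269.5 to 281 CPM in RT4 shFTO, above RT4 shNC at 121 to 129 and below T24 shNC at 495 to 508 and T24 shFTO at 2620.1 to 2647. The 5 were TJP3 (0.307 ± 0.0860 CPM) and OCLN (1.30 ± 0.107 CPM), both of tight junctions, GRHL1 (0.532 ± 0.128 CPM), CRB3 (0 counts) and CDS1 (1.72 CPM). CLDN4, a tight junction claudin, was the member called higher than each other group. It was at 69.8, 63.9 and 66.1 CPM in RT4 shFTO against 29.8 ± 1.18 in T24 shNC, 3.29 ± 0.327 in RT4 shNC and 0.816 ± 0.0804 in T24 shFTO.

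Desmosome genes were called in both directions, with 3 of 10 tested members called higher than each other group and 2 lower (4 and 4 against the mean, median -0.31). PPL, periplakin, was at 278 CPM and DSG2, a desmosomal cadherin, at 218 ± 2.20 CPM, both called above each other group like PKP1. The level of DSG2 was 1.22 times that of T24 shNC, at 178 ± 5.82 CPM. Members called higher than each other group were 2 under upper-quartile scaling and 1 with library totals. PKP2, the plakophilin of simple epithelia and heart, was at 0.313 ± 0.115 CPM against 6.84 ± 0.401 in T24 shNC, its nearest group. EVPL, envoplakin, was at 0.0551 ± 0.0477 CPM, against 0.186 in RT4 shNC, 0.195 in T24 shFTO and 67.4 in T24 shNC. The desmosomal cadherins DSC2, DSC3 and DSG3 had 0 counts.

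Keratins of simple epithelia were expressed. KRT8 was at 984 CPM, against 168 in RT4 shNC, 3765 in T24 shNC and 1739.6 in T24 shFTO, and KRT18, its partner in simple epithelia, at 281, 258 and 289 CPM, where RT4 shNC had 548 ± 33.9, T24 shNC 1655 ± 18.9 and T24 shFTO 1021 ± 28.2 CPM of KRT18. KRT18 was lower than each other group (log2 difference from the mean -1.82, SE 0.0418, highest edgeR BH-adjusted p 3.87e-12), and KRT8 was not called against the mean. KRT80 was the simple keratin called higher, at 410.2 ± 5.89 CPM against 169 ± 3.33 in T24 shNC. KRT20 had 0 counts and KRT19 was at 0.206 CPM. Of 6 tested simple keratins, 2 were called higher than the mean and 1 lower (median -0.95).

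Basal and luminal urothelial lists were counted side by side. Of 17 tested basal and squamous genes, 12 were called higher than the mean and 1 lower, ITGB4, and 5 were higher than each other group (median 1.03). Their summed level was 1090.0 to 1114 CPM in RT4 shFTO, below T24 shNC at 2506 to 2581. It was 554 to 570.1 CPM in RT4 shNC and 168 to 177 in T24 shFTO. RT4 shFTO and T24 shNC each had 8 members at 10 CPM or more, so basal genes were not particular to RT4 shFTO as a list. TP63, the master factor of basal cells, was at 12.8, 13.1 and 12.9 CPM in RT4 shFTO and at most 1.34 CPM in any other library. NGFR, a neurotrophin receptor of basal cells, was at 17.3 ± 0.886 CPM, CD44, the hyaluronan receptor, at 797 ± 16.9 CPM and S100A2 at 14.1 ± 0.279 CPM, each above every other group. The keratins of basal cells stood low, with KRT5 at 0.0522 CPM, KRT14 at 1.19 CPM and KRT6A at 0 counts. Of 20 tested luminal genes, 5 were called higher than the mean and 11 lower, and 2 were higher than each other group, BHMT at 0.756 CPM among them, and 4 lower (median -1.25). PPARG was at 25.4 CPM and GATA3 at 3.01 CPM, between the other groups.

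**Figure D4:**
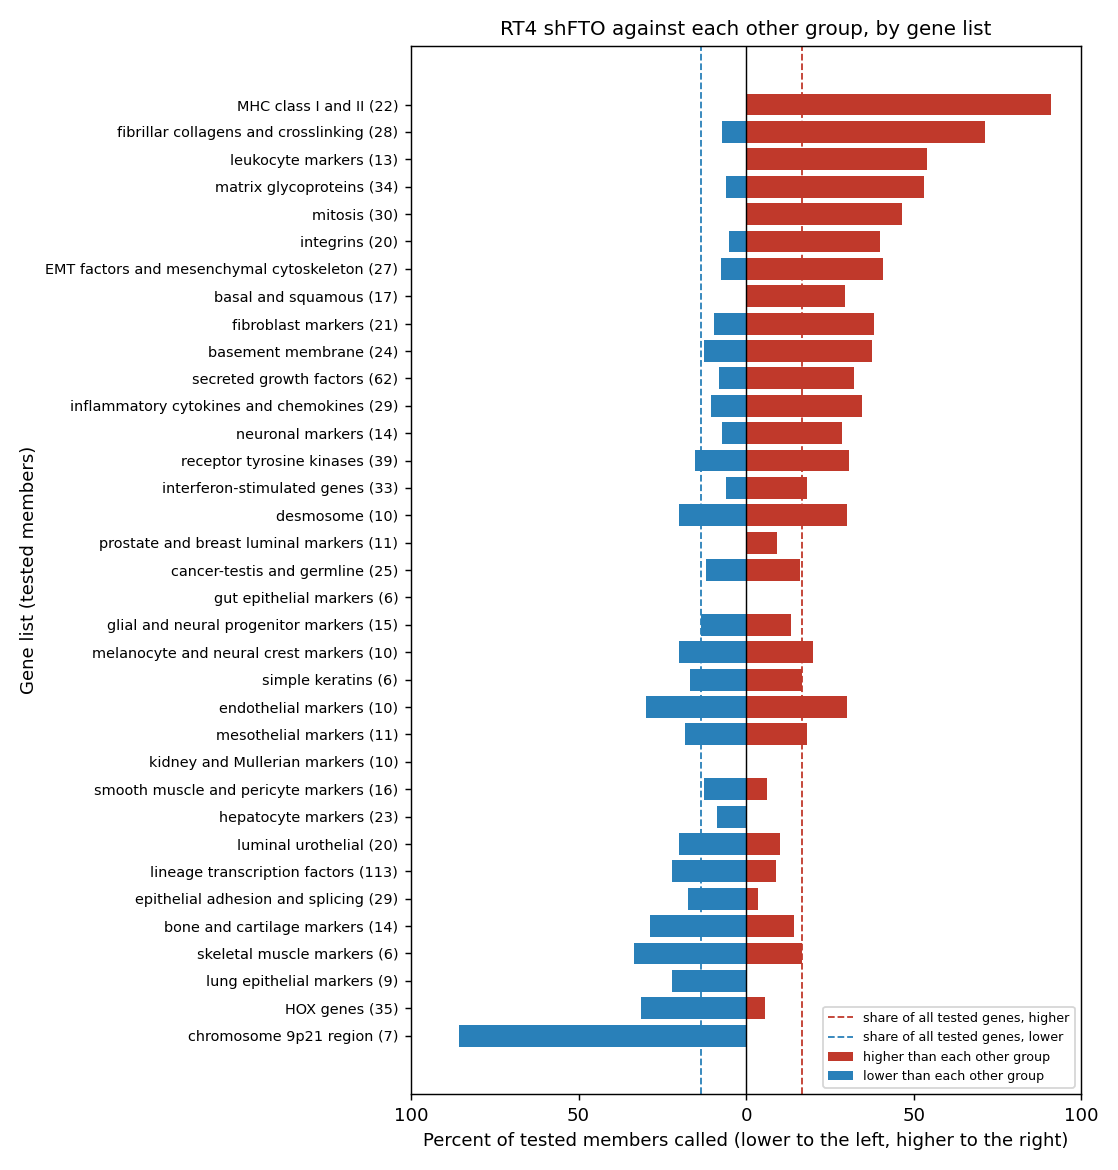
For each gene list, the percent of tested members called higher (red, to the right) or lower (blue, to the left) in RT4 shFTO than in each of the other 3 groups, with the number of tested members in brackets and the share of all tested genes as dashed lines (16.8% higher, 13.6% lower). MHC genes and collagens stand at the top, and HOX genes and the 9p21 region at the bottom.

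Marker lists of other cell types were counted in full. Of 21 tested fibroblast markers, 12 were called higher than the mean and 4 lower, and 8 were higher than each other group and 2 lower (median 1.74). Their summed level was 7560.1 to 7889 CPM in RT4 shFTO, most of it COL1A2, while it was 172 to 184 in RT4 shNC, 622 to 661 in T24 shNC and 304 to 307 in T24 shFTO. The 25 listed genes had 9 at 10 CPM or more and 5 at 0 counts, TCF21, DPT, MEOX2, TBX5 and MFAP5. PDGFRA, a receptor that marks fibroblasts, was at 0.826 CPM and PDGFRB at 5.39 CPM. FOXF1 and TBX15, transcription factors of mesenchyme, were at 55.0 and 41.7 CPM and above each other group. The collagens, THY1 and FAP also stand in the matrix and transition lists, so these lists are not independent of each other. The part of fibroblasts in the result was not tested.

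Of 13 tested leukocyte markers, 9 were called higher than the mean and 1 lower, CORO1A, and 7 were higher than each other group (median 3.30). RAC2, a small GTPase known from blood cells, made up most of their summed level of 305 to 323 CPM, at 244, 252 and 254 CPM, against at most 3.44 CPM in any other library. Summed levels were 35.5 to 41.9 CPM in RT4 shNC, 26.6 to 30.7 in T24 shNC and 28.5 to 36.0 in T24 shFTO. CSF1R, the receptor of macrophage colony-stimulating factor, was at 19.9 ± 0.433 CPM, against 3.44 ± 0.364 in T24 shNC. CD14, a lipopolysaccharide co-receptor, was at 9.62 ± 1.80 CPM, against 3.54 ± 0.224 in T24 shFTO. LAPTM5, a lysosomal protein, was at 8.58 ± 0.806 CPM, against 1.05 ± 0.589 in T24 shNC. CD68, another marker of the list, was at 22.1 ± 3.48 CPM, below RT4 shNC at 34.8 ± 2.87. PTPRC, which codes for the pan-leukocyte antigen CD45, was at 0.578 CPM, and CD3E, FCGR3A and IKZF1 had 0 counts.

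Muscle, vascular and neural lists gave smaller counts. Of 16 smooth muscle and pericyte markers tested, 1 was higher than each other group, ACTG2 at 0.919 ± 0.0403 CPM, and 2 lower, NOTCH3 and KCNJ8 (9 and 3 against the mean, median 0.38). MCAM, a surface adhesion molecule of pericytes, was at 121 ± 2.87 CPM, below T24 shNC at 247 ± 3.36. Skeletal muscle markers summed to 3.19 to 3.58 CPM in RT4 shFTO, while RT4 shNC had 114 to 123, 47.8 to 50.5 in T24 shNC and 25.1 to 25.3 in T24 shFTO, with CDH15 higher and MEF2C and TNNT1 lower than each other group among 6 tested (1 and 3 against the mean, median -1.54). Of 10 tested endothelial markers, 3 were higher than each other group, ROBO4, TEK and PECAM1 (10.5, 1.88 and 7.64 CPM), and 3 lower, EGFL7, ESAM and SOX18 (5 and 3 against the mean, median 1.74). VWF was at 0.306 CPM, CDH5 at 0.639 CPM, and EMCN and CLDN5 had 0 counts.

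Of 14 tested neuronal markers, 4 were higher than each other group and 1 lower (7 and 2 against the mean, median 0.24). The 4 were TUBB3, MAP2, GAP43 and NCAM1. Their count was 3 under upper-quartile scaling and with library totals. MAP2 was at 43.9 ± 1.79 CPM, against 40.0 ± 1.77 in T24 shNC. The lower member was UCHL1 with 0 counts. It was near 0 in T24 shNC too, at 0.285, 0 and 0.107 CPM, so its absence was not particular to RT4 shFTO. TUBB3, a tubulin, was at 154 ± 4.61 CPM against 87.7 ± 8.74 in RT4 shNC, while GAP43 and NCAM1 were under 1 CPM in every library. Of 15 glial and progenitor markers, 2 were higher, ALDH1L1 and GFAP (6.78 ± 0.476 and 3.70 ± 0.651 CPM), and 2 lower, BCAN and GPM6A (5 and 5 against the mean, median -1.29). NES, the filament nestin, was at 130.1 ± 1.76 CPM, below T24 shFTO at 242 ± 6.15 CPM. Of 10 melanocyte and neural crest markers, 2 were higher, TYRP1 at 16.7 ± 1.08 CPM among them, and PMEL and ERBB3 lower (4 and 5 against the mean, median -0.66). MITF, the melanocyte master factor, was at 22.6 ± 0.978 CPM, as in T24 shNC at 23.5 ± 0.876, a pair whose difference was not called (edgeR BH-adjusted p 0.548).

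Of 14 tested bone and cartilage markers, HAPLN1 and RUNX2 were higher than each other group and 4 lower (6 and 7 against the mean, median -0.58). RUNX2, the osteoblast factor, was at 63.3 ± 2.51 CPM against 38.4 ± 1.92 in RT4 shNC and under 2 CPM in T24. The 4 were COL9A3, COL11A2, SPP1 and SOX6. Hepatocyte markers summed to 41.2 to 45.9 CPM in RT4 shFTO and 27945 to 29168 in T24 shFTO, and among 23 tested members CEBPA and ASGR1 were lower than each other group (2 higher and 10 lower against the mean, median -3.34). Among 9 lung markers ABCA3 and LAMP3 were lower than each other group (3 lower against the mean, median -2.64). Against the mean, 1 of 6 gut markers was higher and 3 lower (median -2.68), and 2 of 10 kidney and Mullerian markers were higher and 4 lower (median -1.35). Of 11 mesothelial markers, CALB2 and HAS1 were higher and MSLN and BNC1 lower (4 and 4 against the mean), with a median of -0.64 that was 0.48 on edgeR's fitted values. Of 11 prostate and breast luminal markers, 7 were higher than the mean (median 0.43).

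Developmental transcription factors were more often lower than higher. Of 113 tested lineage factors, 31 were called higher than the mean and 50 lower, and 10 were higher than each other group and 25 lower (median -1.94). LHX8, a LIM homeobox factor of the forebrain and tooth mesenchyme in mice, was at 10.7, 13.7 and 12.5 CPM with 0 counts in the 9 other libraries. The orphan receptor NR2F1 was at 118 CPM and RUNX1, a factor of blood development, at 92.0 CPM, both higher than each other group. ZIC5 had 0 counts, and ZIC2 and FOXP2, both active in the developing brain, stood at 0.107 ± 0.0522 and 0.0179 ± 0.0309 CPM, against at least 3.01 CPM of either in every other library.

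HOX genes, which set position along the body axis, were called lower than the mean for 19 of 35 tested members and higher for 8. Against each other group 11 were lower and 2 higher, with a median log2 difference of -4.28. HOXA2, HOXA3, HOXA4, HOXA6, HOXA7, HOXA9 and HOXA10 had 0 counts, and HOXA5 was at 0.0189 CPM, while every other group had HOXA5 at 3.93 CPM or more and HOXA3 at 2.00 CPM or more. HOXC genes stood at 0.0377 CPM or less, against 28.3 and 62.4 CPM of HOXC10 in RT4 shNC and T24 shNC, and T24 shFTO had 0.0130 CPM of HOXC10. HOXB3 was at 54.9 CPM, between T24 shNC at 15.5 and RT4 shNC at 99.8 CPM. HOXD10 and HOXD11, at 6.81 and 2.63 CPM, were the 2 members above each other group.

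Antigen presentation genes were higher. Of 22 tested MHC genes, 21 were called higher than the mean and 1 lower, and 20 were higher than each other group (median 3.12). B2M, the light chain of class I molecules, was at 1728 CPM against 169, 1457 and 275 CPM in RT4 shNC, T24 shNC and T24 shFTO. CIITA, the class II transactivator, was at 36.1, 38.3 and 37.7 CPM, 6.18 times above T24 shNC (log2 difference from the mean 2.88, SE 0.159, highest edgeR BH-adjusted p 6.02e-07). Class II genes themselves were low, with HLA-DRA at 11.3 ± 0.292, HLA-DPA1 at 5.64 ± 0.246 and HLA-DPB1 at 2.71 ± 0.554 CPM, and CD74, the class II chaperone, was at 80.8 CPM. HLA genes differ between people and share sequence, so reads can be lost or split between them.

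Interferon-stimulated genes gave fewer calls against each group. Of 33 tested members, 25 were called higher than the mean and 5 lower, but 6 were higher than each other group and 2 lower (median 1.05). XAF1, a proapoptotic interferon target, was at 37.5 ± 2.79 CPM and at most 0.642 CPM elsewhere, and SAMD9L, an antiviral factor, at 136 ± 5.74 against 20.1 ± 0.718 in T24 shNC. IFIT1, by contrast, was at 9.33 CPM against 8.71 in RT4 shNC and 209 in T24 shNC. The 2 members lower than each other group were ISG20 at 2.06 ± 0.182 CPM and USP18 at 1.35 CPM.

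Secreted growth factors and their antagonists were called higher than the mean for 37 of 62 tested members and lower for 14, and higher than each other group for 20 and lower for 5 (median 1.26). INHBA, the activin A subunit, was at 26.0 ± 1.93 CPM. ANGPTL4, an inhibitor of lipoprotein lipase, was at 245 ± 5.52 CPM against 25.6 ± 2.24 in RT4 shNC, and VEGFA, which drives vessel growth, at 412 CPM against at most 160.2 CPM in T24 shFTO. EREG and AREG, ligands of the EGF receptor, were at 168 and 53.1 CPM and shared with T24 shFTO at 159 and 56.9 CPM. The 5 lower members were BMP2, BMP6, GDF15, PDGFB and PDGFD.

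Receptor tyrosine kinases were called higher than each other group for 12 of 39 tested members and lower for 6 (23 and 12 against the mean, median 0.40). EPHB2, an ephrin receptor, was at 237, 240.0 and 242 CPM, 9.45 times above T24 shNC, and ROR1, a receptor for Wnt ligands, at 64.0 ± 4.28 CPM. NTRK3, a neurotrophin receptor, was at 3.52 ± 0.50 CPM with 0 counts in the 9 other libraries. EGFR was at 250.1 CPM, MET, the hepatocyte growth factor receptor, at 293 CPM and AXL at 517 CPM, each above every other group. FGFR3, a receptor often mutated in papillary bladder tumours, was at 1.26 CPM, against 1.30 in RT4 shNC and 518 CPM in T24 shFTO, and ERBB3 was at 0.486 ± 0.0440 CPM and lower than each other group.

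Among 29 tested cytokines and chemokines, 18 were called higher than the mean and 8 lower, and 10 were higher than each other group and 3 lower, IL11, LIF and CXCL16 (median 1.79). TNFSF10, the death ligand TRAIL, was at 94.5 ± 0.670 CPM and at most 1.22 CPM elsewhere. CSF1, the ligand of CSF1R, was at 401, 369 and 381 CPM, 17.2 times above T24 shFTO (log2 difference from the mean 5.82, SE 0.0408, highest edgeR BH-adjusted p 3.36e-19). IL1B was at 31.4 ± 0.977 CPM, CCL2 at 25.4 ± 0.710, IL6 at 25.6 and CXCL12 at 72.3 CPM. CCL5, at 242 CPM in T24 shNC, was at 0.176 CPM.

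Mitotic genes were at 10 CPM or more in all 4 groups for all 30 listed members. In RT4 shFTO 28 were called higher than the mean and 1 lower, CDK1, and 14 were higher than each other group (median 0.67). The count against the mean depended on the scaling, with 22 higher and 1 lower under upper-quartile scaling and 20 and 3 with library totals. Under both, 14 stayed higher than each other group. MKI67, the Ki-67 antigen, was at 946, 879.6 and 889 CPM in RT4 shFTO against 314 ± 12.8 in T24 shFTO, 142 ± 4.22 in T24 shNC and 73.0 ± 1.14 in RT4 shNC, and the groups did not overlap (log2 difference from the mean 2.61, SE 0.0279, highest edgeR BH-adjusted p 8.14e-16). KIF20A, a kinesin of cell division, was 2.31 times, CDC20, an activator of the anaphase-promoting complex, 1.92 times and BIRC5, survivin, 1.74 times above the nearest group.

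Cancer-testis and germline genes summed to 19.5 to 21.6 CPM in RT4 shFTO, while RT4 shNC had 1515 to 1593, 125 to 131 in T24 shNC and 111 to 114 in T24 shFTO. Of 25 tested members, 7 were called higher than the mean and 5 lower, and 4 were higher than each other group and 3 lower (median -2.53). PRAME had 0 counts, and MAGEC2 was the highest of the 4 at 5.47 ± 0.310 CPM, followed by MAGEC1, PAGE5 and SSX1 at 1.28 ± 0.316, 0.937 ± 0.218 and 0.541 CPM. Genes of these families are near copies that can share reads.

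RT4 shFTO shared on states most often with T24 shNC and off states most often with RT4 shNC. Of genes at 10 CPM or more in RT4 shFTO and a single other group and under 1 CPM in the remaining groups, 71 were shared with T24 shNC, 22 with T24 shFTO and 13 with RT4 shNC. Of genes under 1 CPM in RT4 shFTO and a single other group and at 10 CPM or more in the remaining groups, 25 were shared with T24 shFTO, 32 with T24 shNC and 45 with RT4 shNC. At these limits 7767 genes were on in all 4 groups. These counts are descriptions with no test.

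Promoter CG content differed between the gene sets. Of the 96 genes high in RT4 shFTO only, 60 had a window of 250 bases in the RefSeq table, with a median of 6.50 CG dinucleotides, and of the 61 absent genes 49 had one, with a median of 22. The median was 19 over all tested genes with a window, 11 over all windows of the table and 22 over genes at 10 CPM or more in all 4 groups. The COL6A3 and CHI3L1 windows shown above lie at or below the median of the high set, and those of MTHFD2 and CDKN2A lie near the median of the absent set. The same sets of the other groups had medians of 18 (high in RT4 shNC only), 10.5 (T24 shNC) and 7 (T24 shFTO), so a low CG count was not particular to RT4 shFTO.

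**Figure D5:**
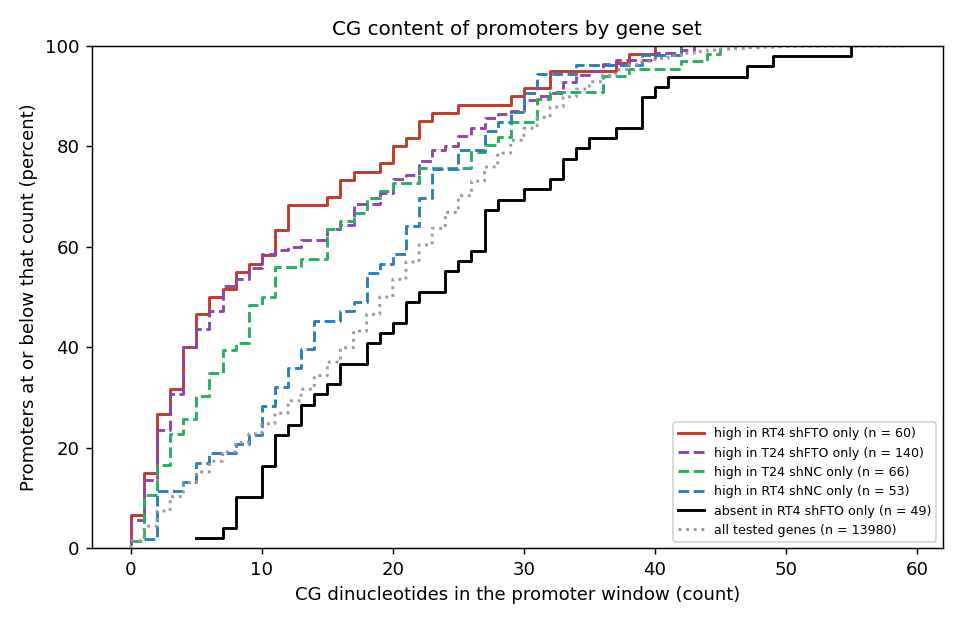
Cumulative percent of promoters at or below each count of CG dinucleotides in the 250 bases before the gene start, for the genes high in RT4 shFTO only (red), absent there only (black), high in another group only (dashed) and all tested genes (grey, dotted). The red line lies to the left of the grey one, with medians of 6.50 and 19, and the dashed line of T24 shFTO lies close to the red one.

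Short motifs were counted in the same windows on both strands. TATAAA, the TATA box, was found in 7 of 60 windows of the high set (11.7%), in 6.52% of tested genes' windows and in 11.1% of all windows of the table. TGACTCA, bound by AP-1, was in 4 of 60 windows of the high set (6.67%), against 3.10% of tested genes and 4.16% of the table. CATTCC, bound by TEAD factors, was in 16.7%, against 9.81% and 11.9%. CCAAT was in 21.7%, against 34.4% and 33.0%, and CACCTG, an E-box that SNAI and ZEB factors bind, in 11.7%, against 16.5% and 17.5%. In the sets high in RT4 shNC, T24 shNC and T24 shFTO only, TATAAA was in 7.55%, 10.6% and 12.1% of windows. TGACTCA was in 1.89%, 9.09% and 4.29% of them, and CATTCC in 11.3%, 10.6% and 14.3%. The TATAAA and TGACTCA shares were therefore not particular to RT4 shFTO. Among these high sets CATTCC was highest in RT4 shFTO, and CCAAT and CACCTG were lowest there. These shares were not tested. In the absent set TATAAA was in 4.08% and CCAAT in 32.7% of 49 windows. A match is a description of letters and not a bound site.

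Within the group, the 3 RT4 shFTO libraries differed little. Of 9976 genes at 10 CPM or more, 75 had a highest library over 1.5 times the lowest (0.752%), and the median ratio was 1.06. No gene of the 35 lists at 10 CPM or more was among them. The most variable were PEDS1-UBE2V1, BEST1, SENP3-EIF4A1, PYURF and BCAP29, and what sets their spread was not tested. The other groups had 0.551% to 0.964% of such genes.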

How the data were processed

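Poly(A)-selected RNA of 12 libraries was sequenced, per the labels' protocols. The authors deposited whole-number counts of reads per gene for all libraries in a single table. The submitters' processing notes name fastp 0.20.0, STAR 2.7.9a and featureCounts 2.0, and the builds mm39, GRCh38 and hg38 without a role. Neither the notes nor the labels state the annotation, the strand setting or the treatment of shared reads.

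Of 43557 genes, 23070 passed edgeR's filterByExpr. Counts were scaled by TMM and fitted in edgeR 4.0.16 (R 4.3.3) by the quasi-likelihood test with all 4 groups sharing the estimate of spread, without the batch number. RT4 shFTO was set against the mean of the 3 other groups on the log2 scale and against each of them, with Benjamini-Hochberg adjustment over all tested genes at 0.05. "Higher than each" means all 3 comparisons past that threshold in the same direction. Standard errors are given where every group held at least 30 counts. Medians of gene lists are of log2 differences of group mean CPM, with levels under 3 counts per group set to that floor, and folds against a group with 0 counts are lower bounds on the same floor. Promoter windows and positions came from RefSeq (GRCh38.p14), and 13012 genes carried an Ensembl ID as their name. Tables and plots used Python 3.11.15, pandas 2.3.3, scipy 1.17.1 and matplotlib 3.10.9.

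The 4 marker genes, FTO, the 15 genes with the largest margin above and the 12 below every other group (log2 of mean CPM + 0.5), and up to 4 called genes per list by margin were named, and 2 genes tied to sex were left out of naming. The 15 and 12 genes were drawn only from genes called against each other group with no overlap of values. Their adjusted p and non-overlap are therefore no separate evidence. The same holds for the marker genes and for the called genes picked by margin from each list. Some genes that meet these rules are not reported here. Members and lists were chosen with earlier results of these data known. The batch number in the labels equals the replicate number, and deviations of libraries with the same number correlated between -0.108 and 0.101 over 18 pairs, with 1 over 0.1, so the numbers were not treated as pairs. The fit was tested on simulated data, where the share of false genes among calls was 8.1%, above the nominal threshold. The simulation held 16205 genes with a common spread, few changed genes and no difference between the other groups. Most genes were called in the real data, so the simulation does not give the false share there. Alternatives were DESeq2 1.42.0, limma-voom (limma 3.58.1), other scalings, no filter, an arithmetic mean, a minimum fold, other CPM limits, the replicate block and leaving out each library.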

Additional observations from a re-analysis of the deposited data

Results flagged for a closer look

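The difference between libraries labelled shFTO and shNC for FTO itself was not the same in the 2 lines. It was higher in shFTO than in shNC under the label RT4, by 0.58 on the log2 scale, with no overlap of the 3 and 3 libraries. Under the label T24 the mean was 25.5 CPM in shFTO and 35.2 CPM in shNC, again with no overlap. The difference of the differences, T24 minus RT4, was -1.04 (SE 0.0665, edgeR BH-adjusted p = 2.75e-10). Its cause was not tested.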

How the results depend on the processing

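Under DESeq2, limma-voom, both other filters, the other scalings and the replicate block, the counts of genes called against the mean and against each group stayed within 1.5 times of those reported. With the replicate block 8876 and 7532 genes were higher and lower than the mean, 3758 and 3064 than each group, and FTO differed by 0.99, and the block ended no call of a named gene. Requiring a 2-fold difference left 4944 higher and 3812 lower than the mean and 1762 and 1494 than each group. Limits of 20 and 0.5 CPM gave 50 high and 14 absent genes, and limits of 5 and 2 CPM gave 251 and 181. Leaving out a library gave 8850 to 9256 higher and 7366 to 7831 lower than the mean, 3727 to 3923 and 2987 to 3179 than each group, 96 to 99 high and 60 to 63 absent genes, and 0.97 to 1.04 for FTO.

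Upper-quartile scaling and library totals moved the median of all genes by -0.122 and -0.193 on the log2 scale. Against the mean they gave 8198 higher and 8678 lower, and 7658 higher and 9247 lower, and against each group upper-quartile scaling gave 3341 and 3740. XBP1 changed sign under these scalings, to -0.02 and -0.09. With an arithmetic mean of the other groups, 5 named genes changed sign, since that mean weights the highest group most. SMTN went from 0.49 to -0.39, SOX9 from 1.41 to -0.45 and SLC1A3 from 2.07 to -0.52. L1CAM went from 3.07 to -1.61 and XBP1 from 0.10 to -0.30. Of the other named genes, 95 moved by more than the spread between libraries and 25 did not, with a log2 difference of COL1A2 of 15.13, a log2 difference of TGFBI of 4.07 and a log2 difference of VIM of -5.17. Without RT4 shFTO replicate 3, XBP1 (0.10) and SERPINA1 (-0.20) were no longer called against the mean, and neither were SYNM with library totals (0.02), XBP1 with no filter (0.06) and SERPINA1 under limma-voom (-0.23). Reads shared by overlapping genes, the unknown strand setting and 3 libraries per group limit the values of single genes.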
